A study of Mus musculus with 15 samples.

Results

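Amino acid and neurotransmitter carriers of the mouse genome are described here across islet cells on 15 Affymetrix Mouse Gene 1.0 ST arrays. The carriers were chosen by symbol, as genes of the families Slc1a, Slc3a, Slc6a, Slc7a, Slc36a, Slc38a and Slc43a. This rule found 64 of the 19938 genes that the array annotation names with exactly 1 symbol. Slc6a19os and Slc7a6os are opposite-strand neighbours and not carriers, so they were set aside, and 62 carriers remain. They comprise 7 Slc1a, 2 Slc3a, 20 Slc6a, 15 Slc7a, 4 Slc36a, 11 Slc38a and 3 Slc43a genes.

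The arrays fall by title into 5 of beta cells, 5 of alpha cells and 5 of Pdx1-deficient cells. All mice had a mixed B6 and BALB/C background. Mice for the control cells were 2 months old and their cells were sorted by a YFP reporter. Tamoxifen preceded collection of the Pdx1-deficient cells by 5 days. No age was found for the mice of that group, and no time after tamoxifen for the control arrays. Differences of age or tamoxifen therefore cannot be told apart from loss of Pdx1. The genotype labels give glucagon-Cre with RosaYFP for the arrays titled beta. They give RIP-CreER with RosaYFP and 1 floxed Pdx1 allele (Pdx1fl/+) for those titled alpha, so these 2 labels run against the cells in which the drivers are usually active. For the third group the label gives only Pdx1-deficient (PKO) and the cell subtype reprogrammed, with no driver, allele or sort stated. Separate animals are not stated for the arrays of a group, so the p-values here measure only how these samples spread, and that spread may be technical.

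Values are the deposited signals, read as log2, and a difference of 1 is then 2-fold. Array medians ran from 5.88 to 6.05. The target gene Pdx1 read 8.85 to 9.33 in beta and 7.27 to 8.21 in alpha arrays. In the Pdx1-deficient arrays it read 9.12 in replicate 1, inside the beta range, and 6.53 to 7.83 in replicates 2 to 5. The library labelled Pdx1-deficient replicate 1 therefore goes against its label, and directions below are given with and without it where it matters. Ins2 read 11.77 to 12.12 over all 15 arrays, and its ranges overlapped between the titles. Gcg read 12.15 to 12.51 in beta and 12.35 to 12.79 in Pdx1-deficient arrays. In alpha arrays Gcg read 12.49 in replicate 2, inside the beta range, and 12.74 to 12.87 in the others, above every beta array. Its difference between alpha and beta arrays was 0.39 (limma adjusted p = 0.0638). It passed an adjusted p under 0.05 without Pdx1-deficient replicate 1 and alpha replicate 2, but not with array medians subtracted or quantile normalization. The mean of 9 measured beta-cell markers was 10.14 to 10.43 in beta, 8.94 to 9.51 in alpha and 8.93 to 10.36 in Pdx1-deficient arrays. In the last group replicate 1 read 10.36 and replicates 2 to 5 read 8.93 to 9.47. The mean was also taken of alpha-cell markers. For 5 measured alpha-cell markers it was 8.33 to 8.55, 8.41 to 9.09 and 8.45 to 8.64, and the array labelled alpha replicate 2, at 8.41, lay inside the beta range. The mean of 12 measured acinar markers was 10.26 in alpha replicate 5 and 5.97 to 6.83 in the other 14 arrays. Over all 15 arrays Sst, a delta-cell hormone gene, read 10.83 to 12.57 and Ppy, of PP cells, 12.01 to 12.86, above every array median. Every title thus held signal of hormones of other cell types, and beta or alpha cells below mean arrays of that title. In bulk samples, fewer cells of a type and less RNA per cell cannot be told apart.

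Amino acids reach the inside of islet cells through several carrier families, and they act there as fuel, as building blocks of hormones and as secretion signals. Arginine and alanine are classical stimuli of glucagon release from alpha cells. Arginine enters through cationic amino acid transporters of the Slc7a family. Large neutral amino acids such as leucine use heterodimers in which a light chain of the Slc7a family is tethered to the heavy chain encoded by Slc3a2. Slc38a carriers bring in glutamine and other neutral amino acids with sodium, and Slc6a carriers include those of the neurotransmitters GABA, glycine, serotonin and dopamine.

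Arrays do not allow the signals of different genes to be ranked against each other, but each gene can be set against the middle of its own array. Of the 62 carriers, 22 lay above the array median in all 15 arrays and 28 in no array. The group of 28 held genes of classical neurotransmitter and glutamate uptake, among them the noradrenaline (Slc6a2), dopamine (Slc6a3) and serotonin (Slc6a4) transporters and the glutamate transporters Slc1a1 and Slc1a3. Whether signals in that range exceed background was not tested, and their differences between Pdx1-deficient and beta arrays ran from -0.19 to 0.40. In the Pdx1-deficient comparison 27 of the 28 were higher than in beta arrays (96.4%), but so were 87.5% of all 7078 genes that lay above the array median in no array. This lean moved with the scaling: 18 of the 28 were higher with array medians subtracted and 16 with quantile normalization (57.1% and 50.7% of all genes of that kind), and the median of all genes shifted from 0.06 to -0.04 and -0.009. The 22 brighter carriers leaned the other way, with 17 lower (77.3%, median -0.17), where 60.6% of all 8305 genes of that kind were lower (median -0.09). With those scalings 19 and 15 of the 22 were lower, against 73.2% and 53% of all genes of that kind. Alpha arrays leaned alike against the same beta arrays. There 24 of the 28 were higher (85.7%, all genes of that kind 81.7%). Of the 22 brighter carriers 17 were lower (77.3%, median -0.18, all genes of that kind 60.3%). With those scalings 20 and 17 of the 22 were lower in alpha arrays, against 71.4% and 55.5% of all genes of that kind.

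Between alpha and beta arrays 4 of the 62 carriers passed the threshold of an adjusted p under 0.05 (limma across all 19938 genes, Benjamini-Hochberg adjustment). Slc7a2 rose, and Slc7a5, Slc6a19 and Slc1a4 fell. This is 6.45% of the carriers, where 4.04% of all genes passed. The arginine carrier gene Slc7a2 was the single rise (1.61% of carriers, 0.893% of all genes), and 3 carriers fell (4.84%, against 3.15% of all genes). Between Pdx1-deficient and beta arrays 1 carrier passed, Slc7a5, which fell (1.61%, where 1.09% of all genes passed). Between Pdx1-deficient and alpha arrays 0 carriers passed in limma, and 0% of all genes passed. At an unadjusted p under 0.05 there were 3 of 62 (4.84%, where 6% of all genes reached it): Slc7a2 and Slc7a8 were lower (2.9% of all genes) and Slc6a6 was higher (3.1%). The shares are close to those of all genes, and the median difference of the 62 carriers was 0.04 in alpha and 0.08 in Pdx1-deficient against beta arrays, where all genes had 0.04 and 0.06.

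**Figure D1:**
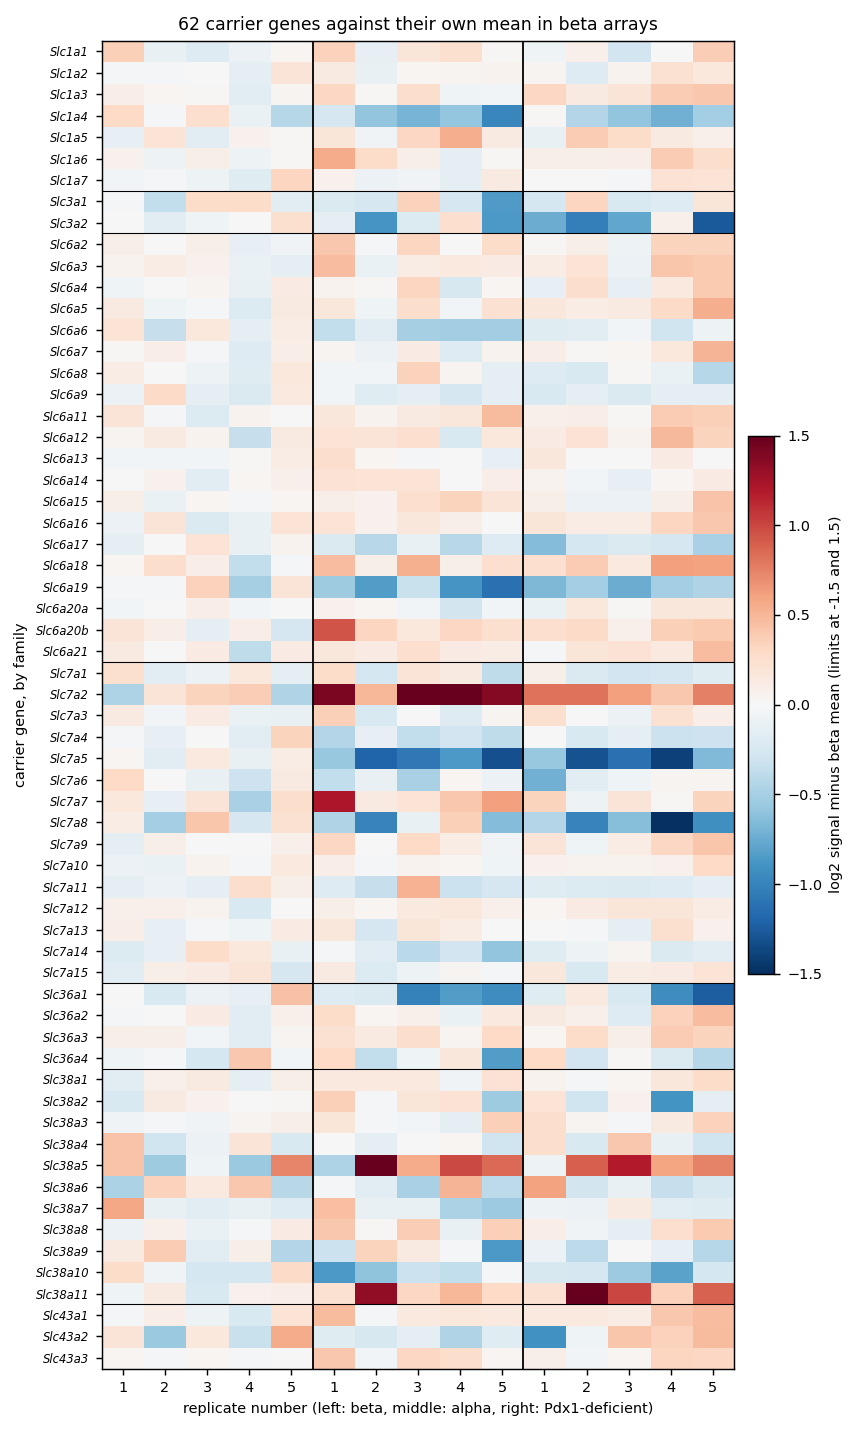
Log2 signal of each of the 62 carriers minus its own mean over the 5 beta arrays, with a column per array (left to right beta, alpha and Pdx1-deficient, replicates 1 to 5) and a row per gene, grouped by family with black lines between families. Slc7a2 is the row with the strongest red in alpha arrays (mean 1.32 above beta), and Slc7a5 is blue in all 10 alpha and Pdx1-deficient arrays (mean -1.01 in both groups).

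Slc7a2 encodes CAT2, a carrier of arginine, lysine and ornithine. It read 8.46, 9.12, 9.26, 9.30 and 8.48 in beta replicates 1 to 5 and 10.34, 9.43, 10.71, 10.48 and 10.30 in alpha replicates 1 to 5. The Pdx1-deficient arrays read 9.74, 9.74, 9.54, 9.33 and 9.68. Every alpha and every Pdx1-deficient array was above every beta array, and the array labelled alpha replicate 2 lay among the Pdx1-deficient arrays, below the other 4 alpha arrays. Slc7a2 rose 2.50-fold in alpha cells, from 8.93 ± 0.42 (SD, n = 5) to 10.25 ± 0.49, which is 1.32 on the log2 scale (SE 0.22, limma adjusted p = 0.00698). The call held in all 24 alternatives, with adjusted p from 0.000296 to 0.0230. The difference was 1.53 without alpha replicate 2 and 1.31 without alpha replicate 5, the array with high acinar markers. The two-sided exact permutation p was 0.00794, the smallest that 5 against 5 arrays allow.

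In Pdx1-deficient arrays Slc7a2 averaged 9.61 ± 0.17 (SD, n = 5), between the control groups. It was 0.68 above beta on the log2 scale (SE 0.22, 95% interval 0.20 to 1.16), with an exact permutation p of 0.00794, but across all genes it did not pass (limma adjusted p = 0.121, from 0.0643 to 0.242 over the alternatives). It was 0.65 when the array labelled Pdx1-deficient replicate 1 was left out. The array with beta-level Pdx1 thus carried as much Slc7a2 (9.74) as the highest of the other Pdx1-deficient arrays. Against alpha arrays the group was lower by 0.65 (95% interval -1.12 to -0.17, limma adjusted p = 0.608, exact permutation p = 0.0397). Of the other cationic carriers, Slc7a1, which encodes the widespread CAT1, averaged 7.55 in beta, 7.54 in alpha and 7.38 in Pdx1-deficient arrays. Slc7a3 averaged 4.93, 4.92 and 5.02, below the median of every array. The related Slc7a4 averaged 6.64, 6.32 and 6.44, and Slc7a14, a lysosomal member of the family, 10.32, 10.03 and 10.20. These 4 gave no call in the 3 comparisons, although Slc7a4 passed in alpha against beta arrays with array medians subtracted, without alpha replicate 2, and without that array and Pdx1-deficient replicate 1.

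Slc38a5 encodes SNAT5, a sodium-coupled carrier of glutamine, asparagine, serine and histidine that is known from alpha cells exposed to raised amino acids. It read 6.98, 6.02, 6.48, 5.99 and 7.28 in beta replicates 1 to 5. In alpha replicates 1 to 5 it read 6.09, 8.09, 7.11, 7.54 and 7.40. The Pdx1-deficient arrays read 6.47, 7.45, 7.74, 7.14 and 7.29. The groups overlapped: alpha replicate 1 lay near the lowest beta arrays, beta replicate 5 lay above alpha replicates 1 and 3, and Pdx1-deficient replicate 1 was the lowest of its group. The difference from beta was 0.70 in alpha (SE 0.35, 95% interval -0.04 to 1.43, limma adjusted p = 0.267) and 0.67 in Pdx1-deficient arrays (95% interval -0.07 to 1.41, limma adjusted p = 0.267). Exact permutation gave p = 0.135 and 0.0794. Without Pdx1-deficient replicate 1 the second difference was 0.85 (limma adjusted p = 0.171). Without alpha replicate 2 the first was 0.48, and without alpha replicate 1 it was 0.98 (limma adjusted p = 0.105). Without Pdx1-deficient replicate 1 and alpha replicates 2 and 5 it was 0.36 (limma adjusted p = 0.565). Alpha replicate 2, which was lowest in its group for Slc7a2, was highest for Slc38a5.

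The other sodium-coupled neutral carriers of the Slc38a family gave no call. Slc38a2, which encodes the adaptive system A carrier SNAT2, averaged 9.80 in beta, 9.84 in alpha and 9.59 in Pdx1-deficient arrays. Slc38a4 averaged 10.88, 10.80 and 10.89, and Slc38a9, a lysosomal arginine sensor for mTORC1, 6.91, 6.77 and 6.71. A second transcript cluster of Slc38a9 on the array averaged 6.65, 6.88 and 6.75, with the opposite direction against beta in both groups. Slc38a1 averaged 4.41, 4.53 and 4.51, below the median of every array. The little-studied Slc38a11 was dim in all 3 groups and lay above the array median in 1 array only, Pdx1-deficient replicate 2. Whether its signals exceed background was not tested. In beta replicates 1 to 5 it read 4.35, 4.55, 4.19, 4.48 and 4.51. It read 4.64, 5.74, 4.73, 4.91 and 4.71 in alpha replicates 1 to 5 and 4.64, 6.27, 5.42, 4.76 and 5.30 in Pdx1-deficient replicates 1 to 5. All 10 of these arrays were above all beta arrays, and replicate 2 was highest in both groups. The difference of 0.87 between Pdx1-deficient and beta arrays did not pass (SE 0.27, limma adjusted p = 0.107). When Pdx1-deficient replicate 1 and alpha replicate 2 were both left out it was 1.03 (1.025 before rounding) and passed, with a limma adjusted p of 0.0302. Alpha replicate 2 enters this comparison only through the spread shared by the 3 groups. With any 1 array left out the difference did not pass.

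Ranges of arrays did not overlap between Pdx1-deficient and beta arrays for 6 carriers: Slc7a2, Slc38a11 and Slc1a3 were higher, and Slc7a5, Slc6a17 and Slc7a11 lower. That is 9.68% of the carriers, where 5.96% of all genes had ranges that did not overlap (2.77% higher and 3.18% lower). Between alpha and beta arrays there were 3, Slc7a2, Slc38a11 and Slc7a5 (4.84%, against 6.34% of all genes, 2.29% higher and 4.05% lower). Between Pdx1-deficient and alpha arrays there were 0, against 0.637% of all genes. Slc1a3, a glutamate transporter gene, and Slc7a11, which encodes the cystine carrier xCT, lay below the median of every array, at 5.26 and 4.20 in beta and 5.54 and 4.01 in Pdx1-deficient arrays.

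**Figure D2:**
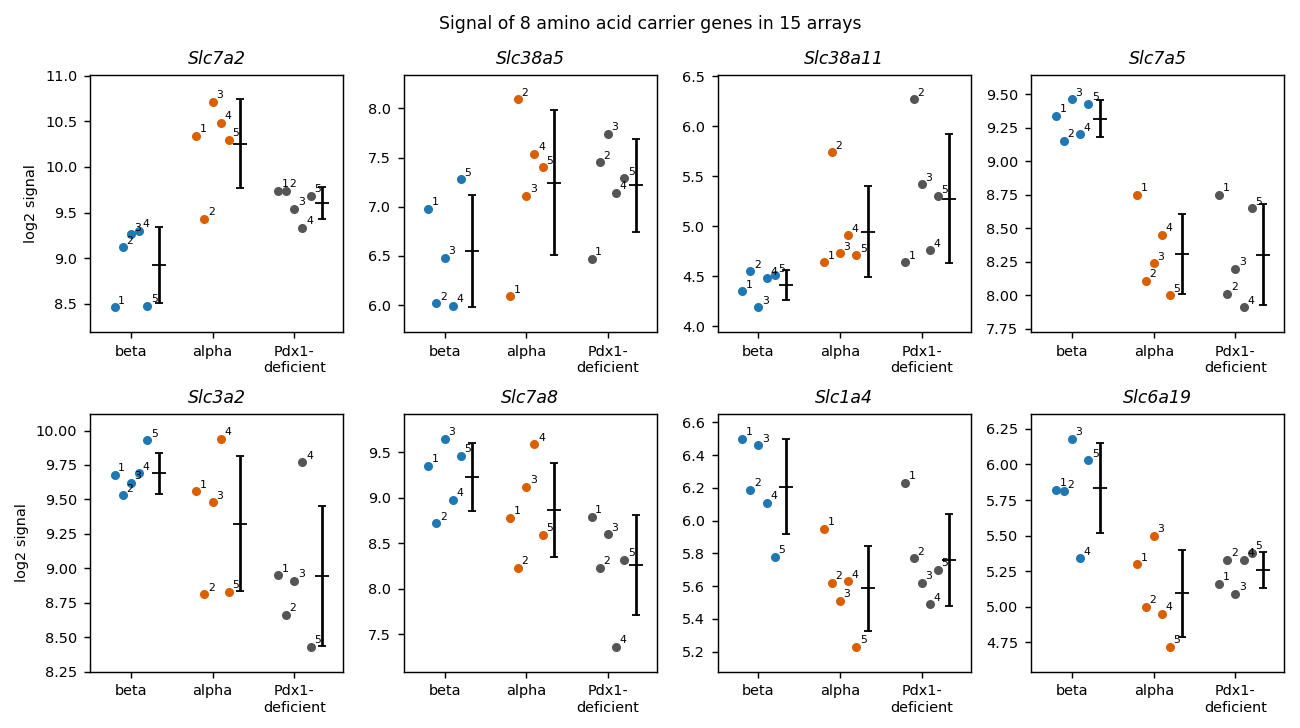
Log2 signal (vertical axis, a separate scale per gene) of 8 carriers in the 5 beta, 5 alpha and 5 Pdx1-deficient arrays, with the replicate number beside each point and the mean with SD as a black bar. For Slc7a2 all alpha and Pdx1-deficient points lie above the beta points, for Slc7a5 all lie below them, and for Slc38a5 the 3 groups overlap.

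Slc7a5 encodes LAT1, the light chain of the main leucine exchanger of growing cells. It read 9.34, 9.15, 9.46, 9.20 and 9.43 in beta replicates 1 to 5. Alpha replicates 1 to 5 read 8.75, 8.11, 8.24, 8.45 and 8.0, and the Pdx1-deficient arrays 8.75, 8.01, 8.20, 7.91 and 8.65. All 10 lay below every beta array, and replicate 1 was highest in both groups. The gene fell 2.01-fold in alpha cells, from 9.32 ± 0.14 (SD, n = 5) to 8.31 ± 0.30 (log2 difference -1.01, SE 0.17, limma adjusted p = 0.00747), a call that held in all 24 alternatives. It fell 2.01-fold in Pdx1-deficient arrays as well, to 8.31 ± 0.38 (log2 difference -1.01, SE 0.17, limma adjusted p = 0.0316, from 0.00633 to 0.0717 over the alternatives). Leaving out the array labelled Pdx1-deficient replicate 1 gave -1.12 (limma adjusted p = 0.00633). The call was lost without beta replicate 1, 4 or 5 or Pdx1-deficient replicate 2, 4 or 5, where the difference ran from -1.10 to -0.91 and between 0 and 21 of all genes passed. It was also lost with the replicate number as a block (limma adjusted p = 0.0589) and with the arrays quantile normalized again (0.0600). The 2 comparisons share the beta arrays. Pdx1-deficient and alpha arrays differed by -0.004 (95% interval -0.37 to 0.36), and by -0.285 without Pdx1-deficient replicate 1 and alpha replicates 2 and 5 (limma adjusted p = 0.862).

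Slc3a2 encodes the heavy chain 4F2hc (CD98), which brings LAT1 and its relatives to the cell surface. It read 9.68, 9.53, 9.62, 9.69 and 9.93 in beta replicates 1 to 5. It read 9.56, 8.81, 9.48, 9.94 and 8.83 in alpha and 8.95, 8.66, 8.91, 9.77 and 8.43 in Pdx1-deficient replicates 1 to 5. Pdx1-deficient replicates 1, 2, 3 and 5 were below every beta array and replicate 4 was inside their range. The group differed from beta by -0.75 (SE 0.24, 95% interval -1.26 to -0.23, limma adjusted p = 0.116), and alpha arrays by -0.37 (SE 0.24, limma adjusted p = 0.403). The alpha difference was -0.24 without alpha replicate 2 and Pdx1-deficient replicate 1, and -0.03 when alpha replicate 5 was left out too.

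Slc7a8 encodes LAT2, a second light chain that pairs with 4F2hc and carries a broader set of neutral amino acids. It read 9.35, 8.72, 9.65, 8.98 and 9.46 in beta replicates 1 to 5. It read 8.78, 8.23, 9.12, 9.59 and 8.59 in alpha and 8.79, 8.23, 8.60, 7.36 and 8.32 in Pdx1-deficient replicates 1 to 5. Apart from replicate 1, the Pdx1-deficient arrays lay below all beta arrays. The difference from beta was -0.97 (SE 0.28, limma adjusted p = 0.0898) in Pdx1-deficient and -0.37 (SE 0.28, limma adjusted p = 0.467) in alpha arrays. The Pdx1-deficient difference passed when Pdx1-deficient replicate 1 and alpha replicate 2 were both left out (-1.11, limma adjusted p = 0.0456). With any 1 array left out it did not pass. Pdx1-deficient and alpha arrays differed by -0.60 (95% interval -1.20 to -0.001, limma adjusted p = 0.825), from -1.04 without Pdx1-deficient replicate 1 and alpha replicates 2 and 5 to -0.38 without Pdx1-deficient replicate 4. The difference between alpha and beta arrays was -0.21 without alpha replicate 2 and -0.07 without those 3 arrays.

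The remaining partners of the heavy chains gave no call. Slc7a6 and Slc7a7, the light chains that exchange cationic for neutral amino acids, averaged 7.02 and 5.80 in beta, 6.82 and 6.32 in alpha, and 6.85 and 5.96 in Pdx1-deficient arrays. Slc3a1, the heavy chain of the kidney cystine carrier, averaged 5.90, 5.66 and 5.86, and its light chain Slc7a9 averaged 4.83, 4.96 and 5.02. The heavy-chain-independent system L carrier Slc43a2 averaged 7.56, 7.32 and 7.61, while Slc43a1 and Slc43a3 lay below the median of every array.

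Slc1a4 encodes ASCT1, an exchanger of serine, alanine and cysteine. It read 6.50, 6.19, 6.46, 6.11 and 5.78 in beta replicates 1 to 5, 5.95, 5.62, 5.51, 5.63 and 5.23 in alpha replicates 1 to 5, and 6.23, 5.77, 5.62, 5.49 and 5.70 in Pdx1-deficient replicates 1 to 5. It fell by 0.62 on the log2 scale in alpha cells (SE 0.17, limma adjusted p = 0.0497, from 0.0226 to 0.121 over the alternatives), with 1 alpha array inside the beta range. The call stood at the threshold and held in 11 of 24 alternatives. It was lost without any 1 of alpha replicates 2, 3, 4 and 5, beta replicates 1, 2, 3 and 4 and Pdx1-deficient replicates 2, 3 and 5, with an adjusted p of 0.114 without the acinar-rich alpha replicate 5. Its difference in Pdx1-deficient arrays was -0.44 (limma adjusted p = 0.156).

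Slc6a19 encodes B0AT1, the neutral amino acid carrier of gut and kidney. It read 5.82, 5.81, 6.18, 5.34 and 6.03 in beta replicates 1 to 5, 5.30, 5.00, 5.50, 4.95 and 4.72 in alpha replicates 1 to 5, and 5.16, 5.33, 5.09, 5.33 and 5.38 in Pdx1-deficient replicates 1 to 5. It lay above the array median in 2 beta arrays and in no other array, and its part of background was not tested. It fell by 0.74 in alpha cells (SE 0.16, limma adjusted p = 0.0202), a call lost when beta replicate 5 (0.0524), alpha replicate 4 (0.0504) or alpha replicate 5 (0.0506) was left out, and when Pdx1-deficient replicate 1 and alpha replicates 2 and 5 were (-0.58, limma adjusted p = 0.0808). In Pdx1-deficient arrays it differed by -0.58 (limma adjusted p = 0.0787), and by -0.68 with array medians subtracted, where it passed (limma adjusted p = 0.0357).

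RefSeq promoters (GRCm38.p6) were found for 45 of the 62 carriers. Those of Slc38a5, Slc3a2, Slc1a4 and Slc6a19 are shown as genes described above, 2 that fell in alpha cells and 2 without a call, each as the 250 bases before the annotated start on the gene's strand. Promoters of Slc7a2 and Slc7a5 are not shown. The 4 windows lie at chrX:8271131-8271380 (plus strand), chr19:8713898-8714147, chr11:20332714-20332963 and chr13:73692637-73692886 (the last 3 on the minus strand). Capitals mark matches, on either strand, to TGATGNAA (core of the amino acid response element bound by ATF4), CTAATG (core bound by PDX1) or TGCTGA (MAF half-site).
Slc38a5: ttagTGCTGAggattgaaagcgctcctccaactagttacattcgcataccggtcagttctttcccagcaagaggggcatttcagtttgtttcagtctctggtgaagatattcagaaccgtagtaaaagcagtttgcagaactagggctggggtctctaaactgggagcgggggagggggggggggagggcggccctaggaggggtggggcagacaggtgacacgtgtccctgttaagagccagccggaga
Slc3a2: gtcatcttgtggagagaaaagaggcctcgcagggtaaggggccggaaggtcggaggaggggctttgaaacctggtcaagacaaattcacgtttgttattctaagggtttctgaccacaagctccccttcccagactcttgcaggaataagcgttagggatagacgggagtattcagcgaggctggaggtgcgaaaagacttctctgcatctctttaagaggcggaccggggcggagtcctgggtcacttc
Slc1a4: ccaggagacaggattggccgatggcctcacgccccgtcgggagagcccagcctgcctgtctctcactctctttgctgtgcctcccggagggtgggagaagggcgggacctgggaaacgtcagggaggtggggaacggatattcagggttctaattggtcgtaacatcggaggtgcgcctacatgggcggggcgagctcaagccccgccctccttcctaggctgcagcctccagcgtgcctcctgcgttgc
Slc6a19: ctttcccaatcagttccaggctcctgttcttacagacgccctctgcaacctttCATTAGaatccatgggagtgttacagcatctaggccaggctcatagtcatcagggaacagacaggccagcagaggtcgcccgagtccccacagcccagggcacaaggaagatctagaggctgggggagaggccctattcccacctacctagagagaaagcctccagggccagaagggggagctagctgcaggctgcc

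Slc38a5 holds a MAF half-site that begins 246 bases before the start, and Slc6a19 holds a PDX1 core on the opposite strand, whose match begins 197 bases before it. No letters of the 3 motifs are in the windows of Slc3a2 and Slc1a4. Over all 32851 promoters of this length, 3.45% hold TGATGNAA, 6.36% CTAATG and 16.1% TGCTGA. Over the 66 promoters of carriers the shares were 6.06%, 6.06% and 13.6%. The carriers with TGATGNAA were Slc6a21, Slc7a7 and Slc7a11. A match is only a run of letters, and no binding was measured here.

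The remaining Slc6a carriers with signals above the array median included those of taurine and creatine and a vesicular carrier. Slc6a6, the taurine carrier, averaged 9.58 in beta, 9.17 in alpha and 9.43 in Pdx1-deficient arrays. Its difference of -0.41 in alpha cells lay just short of the threshold (SE 0.11, limma adjusted p = 0.0512) and passed in 5 of 24 alternatives. Slc6a8, the creatine carrier, averaged 7.17, 7.20 and 6.98. Slc6a17, a vesicular carrier of neutral amino acids, read 7.31, 7.45, 7.66, 7.34 and 7.51 in beta and 6.81, 7.19, 7.24, 7.21 and 6.97 in Pdx1-deficient replicates 1 to 5. Those ranges did not overlap, and its difference of -0.37 passed only with array medians subtracted (limma adjusted p = 0.0806 otherwise). Among carriers of GABA and glycine, Slc6a11, Slc6a12 and Slc6a13 averaged 5.55, 5.87 and 4.79 in beta arrays and differed by 0.06 to 0.24 in Pdx1-deficient arrays. These 3 did not pass. The glycine carrier gene Slc6a5 averaged 4.96 and differed by 0.25, and Slc6a9, the other glycine carrier gene, by -0.17, and neither passed. In the lysosomal proton-coupled family, Slc36a1 (PAT1) averaged 7.63 in beta, 6.99 in alpha and 7.14 in Pdx1-deficient arrays and Slc36a4 7.39, 7.23 and 7.26, and neither passed.

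**Figure D3:**
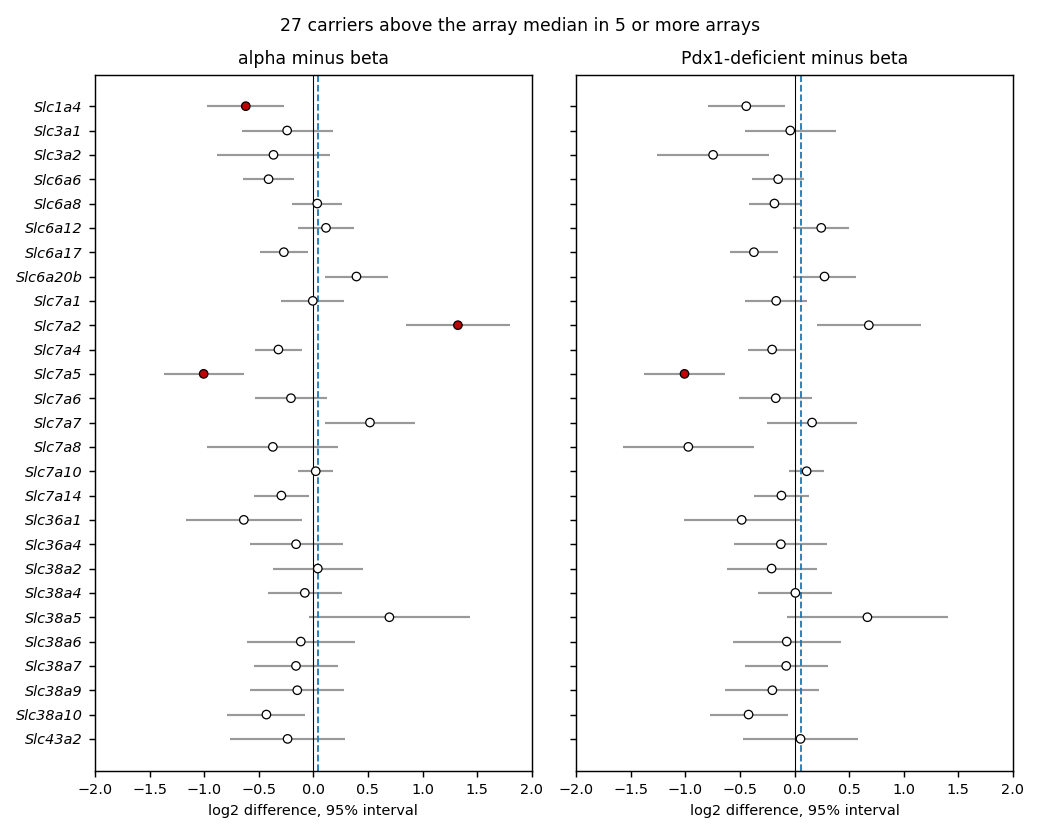
Log2 difference from beta arrays (points) with 95% intervals (grey lines) for the 27 carriers above the array median in at least 5 arrays, in alpha arrays on the left and Pdx1-deficient arrays on the right. Red points passed an adjusted p under 0.05 in limma, the dashed blue line is the median of all genes (0.04 and 0.06), and Slc7a5 is the only carrier that is red on both sides.

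Carriers respond to amino acid supply through ATF4, a transcription factor that is made when amino acids run short or the endoplasmic reticulum is stressed and that drives Asns and several carrier genes, Slc7a5, Slc3a2 and Slc7a11 among them. Of 22 measured genes of an ATF4 amino acid response list, 5 fell and 0 rose in Pdx1-deficient arrays (0.928% of all genes fell), and 5 fell and 0 rose in alpha arrays (3.15% of all genes fell). The list medians were -0.40 and -0.29, where all genes had 0.06 and 0.04 and the genes above the array median in all 15 arrays had -0.09 and -0.08. In Pdx1-deficient arrays 7 fell when Pdx1-deficient replicate 1 and alpha replicate 2 were left out and 8 with array medians subtracted, but 2 with quantile normalization and 0 with the replicate number as a block. In alpha arrays 3 to 6 fell over these alternatives. Asns, the asparagine synthetase gene, read 10.30, 10.44, 10.35, 10.69 and 10.16 in beta, 9.38, 9.26, 8.85, 9.63 and 9.27 in alpha and 9.63, 9.24, 9.40, 8.47 and 8.79 in Pdx1-deficient replicates 1 to 5, and all 10 were below beta. It fell by 1.28 in Pdx1-deficient (limma adjusted p = 0.0234) and by 1.11 in alpha arrays (limma adjusted p = 0.00872). Chac1, a glutathione-degrading enzyme gene, fell by 1.25 in Pdx1-deficient arrays (limma adjusted p = 0.0322), and Atf4 itself by 0.68 (limma adjusted p = 0.0491). Both the Chac1 and the Atf4 call were lost with quantile normalization and with the block. The proline synthesis gene Aldh18a1 fell in both, by 0.62 and 0.56. The shortage and stress targets Trib3, Sesn2 and Ddit3 did not pass, with differences of 0.08, -0.12 (-0.115 before rounding) and -0.65 in Pdx1-deficient arrays. Whether this list's change and that of Slc7a5 are connected was not tested.

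**Figure D4:**
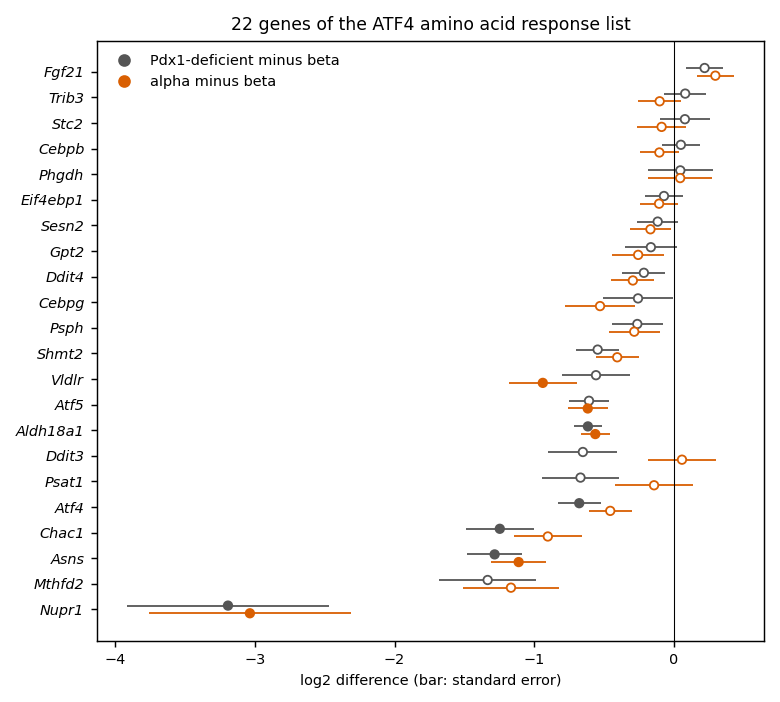
Log2 difference from beta arrays with standard error for the 22 measured ATF4 response genes, in Pdx1-deficient (grey) and alpha (orange) arrays, with filled points for an adjusted p under 0.05 in limma. Asns, Aldh18a1 and Nupr1 are filled in both comparisons, which share the beta arrays.

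Genes that sense amino acids for mTORC1 gave few calls, but their mean was lower outside beta arrays. It was 7.92 to 8.12 in beta, 7.73 to 7.90 in alpha and 7.59 to 7.91 in Pdx1-deficient arrays. The list medians against beta were -0.22 in alpha and -0.21 in Pdx1-deficient arrays. Genes above the array median in all 15 arrays had -0.08 and -0.09. Of 28 measured, 1 rose and 2 fell in alpha arrays (0.893% of all genes rose and 3.15% fell) and 1 fell in Pdx1-deficient arrays (0.928% of all genes fell). Rragd, a Rag GTPase gene, fell by 1.26 (-1.255 before rounding) in alpha cells (limma adjusted p = 0.00143), while its relative Rragb rose by 0.90 (0.895 before rounding, limma adjusted p = 0.0406). The Rragb call was lost with the replicate block, with array medians subtracted and without Pdx1-deficient replicate 1 and alpha replicates 2 and 5. Nprl3, part of the GATOR1 brake on mTORC1, fell by 0.62 in alpha (limma adjusted p = 0.00766) and 0.53 in Pdx1-deficient arrays (limma adjusted p = 0.0327, the latter call lost with the block and with quantile normalization). Of 21 measured enzymes of glutamate, glutamine, GABA and arginine metabolism, 2 fell in alpha cells, the GABA transaminase gene Abat by 1.04 (-1.035 before rounding, limma adjusted p = 0.0225) and Got2 by 0.76 (limma adjusted p = 0.0447), where 3.15% of all genes fell. From 1 to 5 (array medians subtracted) of the 21 fell over the alternatives, and Got2 was not called with the block, with quantile normalization or without those 3 arrays. Another of these enzyme genes, Oat, was called higher in alpha arrays without Pdx1-deficient replicate 1 and alpha replicate 2, and also without those 3 arrays. In Pdx1-deficient arrays 0 of these enzymes passed in limma, with the lowest adjusted p at Got1 (0.0788). Of 16 further amino acid and vesicular carriers 1 fell in alpha cells (3.15% of all genes fell), the vesicular monoamine carrier Slc18a1, by 0.90 (limma adjusted p = 0.0488). The call was lost with quantile normalization. The gene averaged 6.70 in beta, 5.80 in alpha and 6.67 in Pdx1-deficient arrays. Of 5 measured transport partners, among them Sgk1 and Nedd4l, 0 passed in limma.

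Markers of other cell types were measured in the same arrays. Acinar markers averaged 6.02 to 6.68 in beta and 5.99 to 6.50 in Pdx1-deficient arrays, and leukocyte markers 5.07 to 5.43 and 5.03 to 5.35. Of the 12 acinar markers Bhlha15, which encodes the secretory-cell regulator MIST1, was the only 1 that passed. It fell by 1.09 in Pdx1-deficient (limma adjusted p = 0.0316) and by 1.16 in alpha arrays (limma adjusted p = 0.00632), with no overlap with beta arrays in either. Stromal and stellate markers averaged 5.25 to 5.39 in beta, 5.33 to 5.78 in alpha and 5.43 to 5.68 in Pdx1-deficient arrays, all 5 of the last group above every beta array. Their median difference in Pdx1-deficient arrays was 0.17, where all genes above the array median in no array had 0.12. It was 0.075 with array medians subtracted and 0.095 with quantile normalization, where all genes of that kind had 0.019 and 0.002. Rgs5 was the only 1 of the 8 stromal and stellate markers that passed, higher in alpha arrays. Endothelial markers averaged 5.01 to 5.20 in beta, 5.00 to 5.43 in alpha and 5.09 to 5.36 in Pdx1-deficient arrays. The part of these values in the carrier differences was not tested.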

How the data were processed

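RNA of 15 islet cell samples was measured on arrays, from 500 ng of total RNA per labelling reaction per the labels' protocols. The deposited values are log2 signals by their range (2.11 to 13.45), made by the authors with Affymetrix Expression Console per the submitters' processing notes. How the signals were summarized and corrected for background, their log base and the genome build were not given in the sources used here. Of 35556 transcript clusters, 21789 had exactly 1 gene symbol in the platform annotation, and each of 19938 genes was represented by its cluster with the highest mean. Slc38a1 and Slc38a9 had 2 clusters each.

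Groups were taken from sample titles. All 15 arrays entered a model of 3 group means in limma 3.58.1 (lmFit, eBayes) in R 4.3.3 and tested on simulated data. p-values were adjusted over all genes by Benjamini-Hochberg (threshold 0.05). Exact permutation tests for Slc7a2, Slc38a5 and Pdx1 used all 252 splits of 10 arrays. Alternatives were each array left out, doubted arrays left out, a replicate block, 2 scalings, a filter on low values, another moderation, 2-group fits and mean clusters. Named with per-array values were Slc7a2, Slc38a5 and carriers past the threshold or with a log2 difference of at least 1. Slc3a2, Slc7a8, Slc38a11 and Slc6a17 were added after their values were seen, as partners or for ranges that did not overlap. The members and lists were chosen with earlier results of these data known. With 5 arrays per group, the precision depends on their number and on their spread, which may be technical.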

Additional observations from a re-analysis of the deposited data

Results flagged for a closer look

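Slc38a11 read 5.74 in the array labelled alpha replicate 2, far from the other 4 alpha arrays, whose highest value was 4.91. Without that array the difference between alpha and beta arrays was 0.33 in place of 0.53. This was the only 1 of 27 gene and group pairs examined in which a single array stood so far apart, and chance gives about 1 in 20.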

How the results depend on the processing

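Slc7a2 and Slc7a5 in alpha against beta arrays kept their direction and passed in all 24 alternatives. For Slc7a2 and Slc38a5 against beta no direction reversed. The number of carriers past the threshold between Pdx1-deficient and beta arrays was 1, and ran from 0 to 1 when single arrays were left out. It was 3 when Pdx1-deficient replicate 1 and alpha replicate 2 were left out (Slc38a11, Slc7a5 and Slc7a8), 3 without these and alpha replicate 5 (an alternative chosen after seeing the data), 3 with array medians subtracted and 0 with quantile normalization, while all genes passing numbered 217, 626, 534, 615 and 29. Between alpha and beta arrays it was 4, ran from 2 to 5 when single arrays were left out (2 without alpha replicate 4 or 5) and was 2 without Pdx1-deficient replicate 1, alpha replicate 2 and alpha replicate 5. It was 6 without the first 2 of these arrays and 6 with array medians subtracted. All genes passing there numbered 806, and 328 to 1430 when single arrays were left out. Pairing of same-numbered arrays is not stated, and correlations of their deviations do not settle it, as no reference for unpaired arrays was made. Of these correlations 5 of 15 were over 0.1 (-0.17 to 0.22), and 4 of 15 were the best for their number. Those of beta with alpha arrays ran from 0.005 to 0.22. With the replicate number as a block, 0 carriers passed in Pdx1-deficient against beta arrays (8 of all genes) and 4 in alpha against beta arrays. Differences near 0 changed sign. Between Pdx1-deficient and alpha arrays, Slc38a5 was 0.37 without Pdx1-deficient replicate 1 and alpha replicate 2, 0.49 also without alpha replicate 5, 0.017 with quantile normalization and -0.32 to 0.18 over single arrays left out. Slc7a5 was 0.031 with quantile normalization, -0.115 to 0.11 over single arrays left out and -0.285 without the 3 arrays, Slc1a4 -0.05 without the 3 arrays, and Slc36a1 -0.005 to 0.34 over single arrays left out. Slc6a6 in Pdx1-deficient against beta arrays was 0.008 with quantile normalization. The cause was not tested. The counts of the pathway lists under these alternatives were added after seeing the data. Low signals limit what can be said of the 28 carriers below the median of every array, and of Slc38a11, which was above it in 1 array.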

Other observations

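The light and heavy chains of the leucine exchangers did not follow each other in Pdx1-deficient replicates 4 and 5, which were named after their values were seen. Replicates 1, 3 and 2 had the same order for Slc7a5 (8.75, 8.20 and 8.01), Slc7a8 (8.79, 8.60 and 8.23) and Slc3a2 (8.95, 8.91 and 8.66). Replicate 4 had the lowest Slc7a5 (7.91) and Slc7a8 (7.36) of its group and the highest Slc3a2 (9.77). Replicate 5 had the lowest Slc3a2 (8.43) with Slc7a5 at 8.65.

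Some carriers split within a group. Slc36a1, the lysosomal amino acid and proton carrier, read 7.45, 7.78 and 7.40 in Pdx1-deficient replicates 1 to 3 and 6.70 and 6.39 in replicates 4 and 5. In alpha arrays it read 7.44 and 7.41 in replicates 1 and 2 and 6.61, 6.79 and 6.70 in replicates 3 to 5. Slc43a2, a leucine and phenylalanine carrier, read 6.65 in Pdx1-deficient replicate 1 and 7.50 to 8.03 in the other 4. Slc7a7 read 7.02 in alpha replicate 1 and 5.94 to 6.42 in the other alpha arrays. These genes were chosen after their values were seen.

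The opposite-strand genes averaged 5.51 (Slc6a19os) and 8.71 (Slc7a6os) in beta arrays and 5.46 and 8.53 in Pdx1-deficient arrays.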
